A study of Mus musculus with 2 samples.

Results

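The miRNAs described here were 8 mature products of 5 precursors that are commonly named as oncomiRs of pancreatic cancer: mmu-miR-21a-5p, mmu-miR-21a-3p, mmu-miR-221-3p, mmu-miR-221-5p, mmu-miR-222-3p, mmu-miR-31-5p, mmu-miR-31-3p and mmu-miR-210-3p. The prefix mmu, for mouse, is left out below. They were chosen by name from the 1881 mouse miRNAs on the array. Exosomes, small vesicles that cells release into their medium, were collected by differential ultracentrifugation from cultures of 2 murine cell lines, and their total RNA was hybridized to 1 Agilent miRNA array for each line. KPC-exosomes came from pancreatic cancer cells derived from a tumour of genetically engineered mice that carried, among others, a conditional Trp53 R172H allele and the Cre recombinase under the Pdx1 promoter, which is active in the developing pancreas. MPDC-exosomes, the control, came from a purchased pancreatic ductal epithelial line, for which no genotype was given. The KPC line was maintained in a different base medium with 20% serum and the MPDC line with 10%, both were moved to exosome-free serum for collection, and cell line and culture cannot be told apart. Each condition was 1 preparation on 1 array, without replicates, so no difference below has a test, and each ± is the error of the scanner's error model on 1 array. Signals are in arbitrary units, summed over the probes of a miRNA whose signal was above 3 of its errors, and a miRNA with such a probe is called detected.

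A miRNA is cut from a hairpin precursor, from whose 5′ or 3′ arm the mature strand is loaded into an Argonaute protein, and it recognises messenger RNAs mainly through its seed, the bases near its 5′ end. miR-21 is raised in many carcinomas and represses tumour suppressors such as Pdcd4. miR-221 and miR-222 repress the cell cycle inhibitor Cdkn1b, miR-31 has been described both as a promoter and as a suppressor of tumours, and miR-210 is the miRNA induced most regularly by hypoxia.

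The mature sequences follow, from 5′ to 3′ and taken from RefSeq (GRCm38.p6), because they define the members and their families. Capitals mark the seed, bases 2 to 8.
miR-21a-5p: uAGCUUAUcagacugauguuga
miR-21a-3p: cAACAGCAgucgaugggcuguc
miR-221-3p: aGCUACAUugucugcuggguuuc
miR-221-5p: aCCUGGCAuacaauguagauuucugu
miR-222-3p: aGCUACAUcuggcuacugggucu
miR-31-5p: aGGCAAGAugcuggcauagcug
miR-31-3p: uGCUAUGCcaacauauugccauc
miR-210-3p: cUGUGCGUgugacagcggcuga

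The 8 sequences held 7 distinct seeds, since miR-221-3p and miR-222-3p share GCUACAU. Among the 1608 array miRNAs with a RefSeq sequence, miR-1928 carries that seed too, and miR-21c carries the seed of miR-21a-5p. Neither miR-1928 nor miR-21c was detected on either array, so no other of these 1608 with a member's seed was measured here.

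All 5 precursors lie on the minus strand of GRCm38.p6. Mir21a lies at chr11:86584067-86584158 and overlaps the gene Vmp1, Mir31 lies at chr4:88910557-88910662 and overlaps the predicted gene Gm49890, and Mir210 lies at chr7:141221384-141221493 and overlaps no other gene of the RefSeq table. Mir221 at chrX:19146294-19146388 and Mir222 at chrX:19146893-19146971 are neighbours with 504 bases between their hairpins. The hairpins of Mir21a and Mir31 are shown because both of their arms were members, with the arms in capitals.
Mir21a: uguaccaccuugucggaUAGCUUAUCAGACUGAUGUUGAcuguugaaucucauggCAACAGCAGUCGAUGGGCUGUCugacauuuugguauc
Mir31: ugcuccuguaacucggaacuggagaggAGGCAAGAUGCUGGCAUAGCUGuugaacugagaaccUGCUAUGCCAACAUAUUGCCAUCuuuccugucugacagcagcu

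The arrays as a whole differed. MPDC-exosomes gave 1031 detected miRNAs (54.8%) and KPC-exosomes 772 (41.0%), and of the 726 miRNAs detected on both arrays 135 were brighter in KPC-exosomes. The median log2 difference of these 726, KPC-exosomes minus MPDC-exosomes, was −1.37 before normalization and 0.53 after quantile normalization, which forces both arrays onto the same distribution of signals and which matched the values the authors deposited. Normalization thus moved the median by 1.90 on the log2 scale. The 4 spike-in controls differed by −0.31 to 0.38, with a mean of 0.03. For the members measured on both arrays each difference is therefore given before and after normalization and relative to that median.

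Markers of cell types differed between the arrays too, and some went against the label of the MPDC-exosomes. Of 7 epithelial miRNAs, such as the miR-200 family, 7 were detected in MPDC-exosomes and 5 in KPC-exosomes, where miR-203-3p and miR-205-5p were not, with summed signals of 1781 and 98.8. Of 5 mesenchymal miRNAs 5 were detected in MPDC-exosomes, with a summed signal of 226, and none in KPC-exosomes. Of 17 miRNAs of pluripotent cells, from the miR-290 and miR-302 clusters, 17 were detected in MPDC-exosomes and 10 in KPC-exosomes, with summed signals of 492484 and 814. A ductal epithelial line would not usually hold the pluripotent miRNAs, so MPDC-exosomes below means the array with that label. Of 5 acinar or islet miRNAs, KPC-exosomes alone gave a signal of miR-217-5p (60.9 ± 3.42) and MPDC-exosomes alone one of miR-148a-3p (1190 ± 88.5), while miR-216a-5p, miR-216b-5p and miR-375-3p were on neither array. Of 5 blood miRNAs 4 were detected in KPC-exosomes and 3 in MPDC-exosomes, with summed signals of 265 and 317, and miR-144-3p on neither. Their members went both ways before normalization. miR-142a-3p was 6.44-fold higher in KPC-exosomes and miR-142a-5p was detected there alone, while miR-451a and miR-223-3p were 6.31-fold and 5.74-fold higher in MPDC-exosomes. The sums of all these lists are of signals before normalization. The part of these cell types in the differences of the members was not tested.

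Of the 8 miRNAs, 7 were detected in KPC-exosomes and 6 in MPDC-exosomes. The 6 detected on both arrays were miR-21a-5p, miR-221-3p, miR-222-3p, miR-31-5p, miR-31-3p and miR-210-3p. miR-21a-3p was detected in KPC-exosomes alone, and miR-221-5p on neither array. Before any normalization, 5 of the 6 were brighter in KPC-exosomes, while miR-210-3p was brighter in MPDC-exosomes, a direction that turned with quantile normalization.

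**Figure D1:**
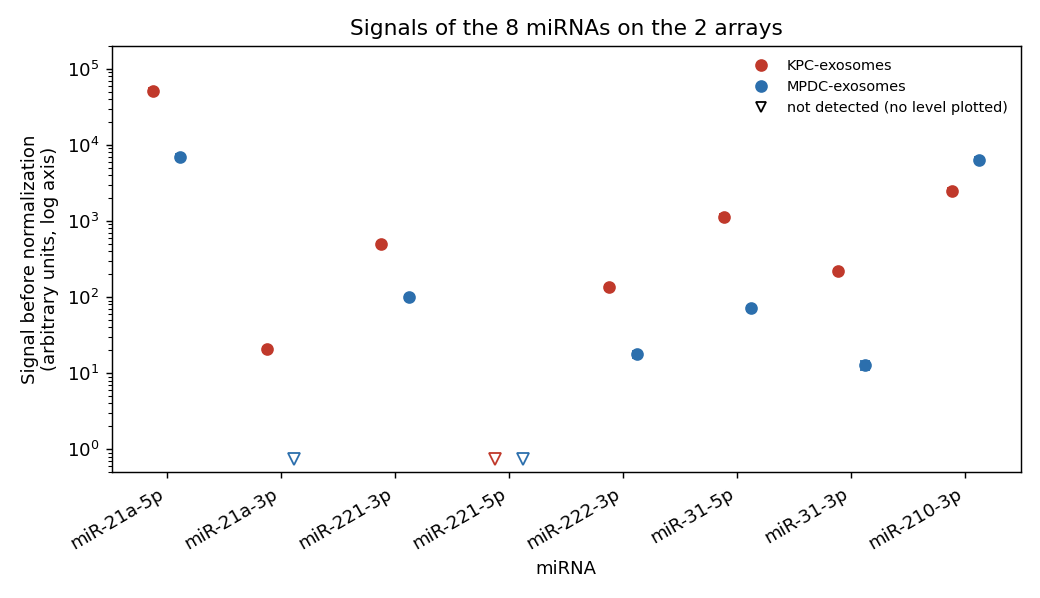
Signal of each of the 8 miRNAs in KPC-exosomes and MPDC-exosomes before normalization, on a log axis in arbitrary units, with the scanner's error as bars and open triangles for signals that were not detected. miR-210-3p is the member with the brighter signal in MPDC-exosomes (6394 against 2499, which turned with quantile normalization), and the other 5 measured on both arrays were brighter in KPC-exosomes.

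A miRNA detected on at least 1 array and at least 2-fold different was called. For these calls a floor of 0.1 stood in for an undetected signal. Before normalization a miRNA detected on 1 array alone, such as miR-21a-3p, was therefore always called, which is not a measured 2-fold difference. After quantile normalization 6 of the 8 members were called higher in KPC-exosomes, against 31.5% of the 1077 miRNAs detected on at least 1 array, and 0 were called lower, against 42.7%. Before normalization 6 were again called higher, against 11.1%, and 1, miR-210-3p, was called lower, against 68.0%. Scaling by the spike-in controls gave the same counts, 6 higher against 11.0% and 1 lower against 68.7%, and scaling by the median gave 6 higher against 25.8% and 0 lower against 45.1%. The members called higher were the same 6 miRNAs before and after quantile normalization: miR-21a-5p, miR-21a-3p, miR-221-3p, miR-222-3p, miR-31-5p and miR-31-3p. The median log2 difference of the 6 members measured on both arrays was 4.71 after and 2.91 before normalization, beside 0.53 and −1.37 over all 726.

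miR-21a-5p, the guide strand of miR-21, gave a signal of 51685 ± 4249 in KPC-exosomes against 6934 ± 606 in MPDC-exosomes. It was 7.45-fold higher in KPC-exosomes before normalization (log2 difference 2.90, scanner error 0.17) and 21.8-fold higher after it (log2 difference 4.45). Relative to the median of the 726 miRNAs the log2 difference was 4.27 before and 3.92 after normalization, so the excess over the typical miRNA was of much the same size either way. It ranked 19th from the top of the 726 differences before normalization and 49th after it.

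Both probes of miR-21a-5p were brighter in KPC-exosomes, but by different amounts. The probe with a target of 20 bases had signals of 40962 and 5974 (log2 difference 2.78), and the probe with a target of 19 bases had 10723 and 960 (log2 difference 3.48). The gap of 0.70 was beyond 2 of its scanner errors (0.29), and miR-21a-5p was the 1 member of the 6 for which this was so. The size of its difference thus depended on the probe, and its direction did not.

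The related miR-21b and miR-21c share 13 bases with the stretch that the longer probe of miR-21a-5p covers. Each pair is shown with the shared run in capitals, because a probe can bind close relatives of its target.
miR-21a-5p: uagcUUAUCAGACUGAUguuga
miR-21b: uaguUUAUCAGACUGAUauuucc
miR-21a-5p: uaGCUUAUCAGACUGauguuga
miR-21c: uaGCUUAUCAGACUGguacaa
Neither relative was detected on either array by its own probes, whose signals lay between −0.96 and 1.34. The other members shared at most 10 bases of their longest probe target with any other miRNA of known sequence on the array.

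miR-21a-3p, the passenger strand of the same hairpin, had a signal of 20.8 ± 1.63 in KPC-exosomes and was not detected in MPDC-exosomes. In KPC-exosomes 2 of its 4 probes were detected, those with targets of 14 and 15 bases, with signals of 7.80 and 13.0. The same probes read 1.39 ± 0.486 and 1.32 ± 0.484 in MPDC-exosomes, below 3 errors. Before normalization the signal in KPC-exosomes was 4.63-fold above the 4.48 summed over all 4 probes in MPDC-exosomes. That is not a firm lower bound, since the errors of those probes were left out. After quantile normalization the log2 difference was 5.86 with MPDC-exosomes set to the level of a detected miRNA of the same summed signal (4.48), 4.68 with the signals of all probes summed and 3.42 with quantiles taken only over miRNAs seen on both arrays, so the first of these is not a firm lower bound. With normexp background correction it was 0.86, under 2-fold. Both arms of Mir21a were therefore brighter in KPC-exosomes, but the size of the difference of the 3′ arm was not fixed by these arrays.

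miR-221-3p gave a signal of 501 ± 36.4 in KPC-exosomes against 99.4 ± 7.40 in MPDC-exosomes. It was 5.04-fold higher in KPC-exosomes before normalization (log2 difference 2.33, scanner error 0.15) and 15.9-fold higher after it (log2 difference 3.99). Relative to the median the log2 difference was 3.71 before and 3.46 after normalization. This was the smallest of the 5 differences in favour of KPC-exosomes among the members measured on both arrays before and after quantile normalization, though not with normexp background correction.

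miR-222-3p, made from the neighbouring hairpin and with the same seed, had a signal of 134 ± 9.86 in KPC-exosomes and 17.7 ± 1.91 in MPDC-exosomes. It was 7.61-fold higher before normalization (log2 difference 2.93, scanner error 0.19) and 31.5-fold higher after it (log2 difference 4.98), and relative to the median by 4.30 and 4.45 on the log2 scale. The difference of miR-221-3p was smaller than that of miR-222-3p by 0.59 on the log2 scale before normalization, which was beyond 2 of its scanner errors (0.24), and by 0.99 after it. With normexp the order was turned, with log2 differences of 3.26 for miR-221-3p and 2.56 for miR-222-3p. These seed partners from 1 locus were thus both higher in KPC-exosomes. The difference of miR-222-3p was the larger in every setting but that with normexp. That setting also adds an offset of 50 and averages all probes in place of summing the detected ones. Their probes cover different parts of the sequences, and those of miR-222-3p have targets of 13 and 14 bases. Over all settings the log2 difference of miR-222-3p went from 2.56 to 7.57, so its size was not fixed by these arrays.

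miR-221-5p, the passenger strand, was not detected on either array, and 0 of its 2 probes passed. The signals summed over both probes were 0.00337 in KPC-exosomes and −0.773 in MPDC-exosomes, so no difference can be given. The 5′ arm of Mir222, miR-222-5p, was detected in KPC-exosomes alone, by 1 of its 3 probes with a signal of 3.19 ± 0.697. Before normalization miR-222-5p was 2.12-fold above the dimmest detected signal of MPDC-exosomes. This is not a firm lower bound, since the probe's own error in MPDC-exosomes was 0.664. Over all settings its log2 difference went down to 0.27, under 2-fold. From these hairpins, the 3′ arms were thus the products detected on both arrays.

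miR-31-5p, the guide strand of miR-31, had a signal of 1132 ± 86.0 in KPC-exosomes and 71.7 ± 5.74 in MPDC-exosomes. It was 15.8-fold higher in KPC-exosomes before normalization (log2 difference 3.98, scanner error 0.16) and 53.4-fold higher after it (log2 difference 5.74). Relative to the median the log2 difference was 5.35 before and 5.21 after normalization. It ranked 12th of the 726 differences before and 26th after normalization.

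miR-31-3p, from the other arm, had a signal of 218 ± 16.3 in KPC-exosomes and 12.8 ± 1.71 in MPDC-exosomes. It was 17.1-fold higher before normalization (log2 difference 4.10, scanner error 0.22), the largest difference among the 6 members measured on both arrays, and ranked 10th of the 726. After quantile normalization it was 345-fold higher (log2 difference 8.43) and ranked 8th. Relative to the median the log2 difference was 5.47 before and 7.90 after normalization. Both arms of Mir31 were thus near the top of all measured miRNAs in either setting.

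How close the arms of Mir31 lay to each other depended on the processing. Before normalization their log2 differences lay 0.12 apart, with a scanner error of 0.27, and 4 of the 105 precursors with both arms measured on both arrays had a smaller gap. After quantile normalization the arms lay 2.69 apart, and 74 precursors had a smaller gap. The gap was 0.12 with quantiles taken only over miRNAs seen on both arrays, 0.19 with the signals of all probes summed and 1.03 with a floor of 1, so not every form of quantile normalization gave the wide gap. With normexp it was 1.46, with the larger difference in miR-31-5p. The median gap over the 105 precursors was 1.17 before and 1.90 after normalization. Quantile normalization over all miRNAs added 4.33 to the log2 difference of miR-31-3p and between 1.55 and 2.05 to those of the other 5 members measured on both arrays. In MPDC-exosomes the probe of miR-31-3p with a target of 18 bases read 3.91 ± 1.07, and 0 of its 15 spots were well above background, while all 15 spots of the probe with a target of 19 bases were.

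**Figure D2:**
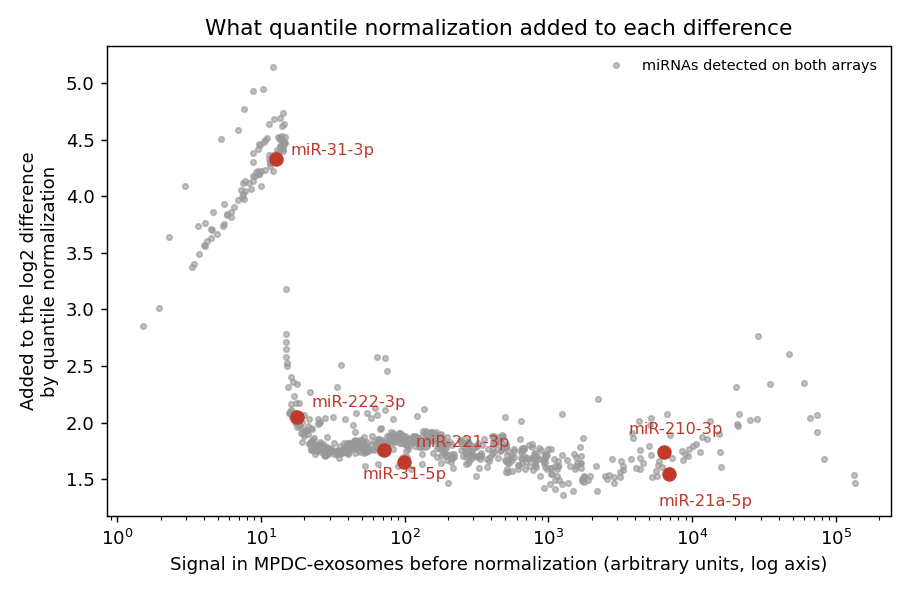
Amount added to the log2 difference by quantile normalization (vertical axis) against the signal in MPDC-exosomes before normalization (horizontal log axis, arbitrary units) for the 726 miRNAs detected on both arrays, with the members marked. miR-31-3p, at a signal of 12.8, gained 4.33, and miR-21a-5p, at 6934, gained 1.55.

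miR-210-3p, the hypoxia-induced miRNA, had a signal of 2499 ± 187 in KPC-exosomes and 6394 ± 487 in MPDC-exosomes. Before normalization it was 2.56-fold higher in MPDC-exosomes (log2 difference −1.36, scanner error 0.15), and after quantile normalization it was 1.31-fold higher in KPC-exosomes (log2 difference 0.38). Relative to the median the log2 difference was 0.02 before and −0.14 after normalization, at the 50.4th and 45.6th percentile of the 726 miRNAs. The difference of miR-210-3p was thus that of a typical miRNA on these arrays, and its direction turned with the scaling. Its 5′ arm, miR-210-5p, was detected in MPDC-exosomes alone, by 1 of its 2 probes with a signal of 3.54 ± 1.06. Of the 15 spots of that probe 1 was well above background there. Before normalization the signal was 2.52-fold above the dimmest detected signal of KPC-exosomes. This is not a firm lower bound, since the probe's own error in KPC-exosomes was 0.929. No bound could be given after quantile normalization.

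**Figure D3:**
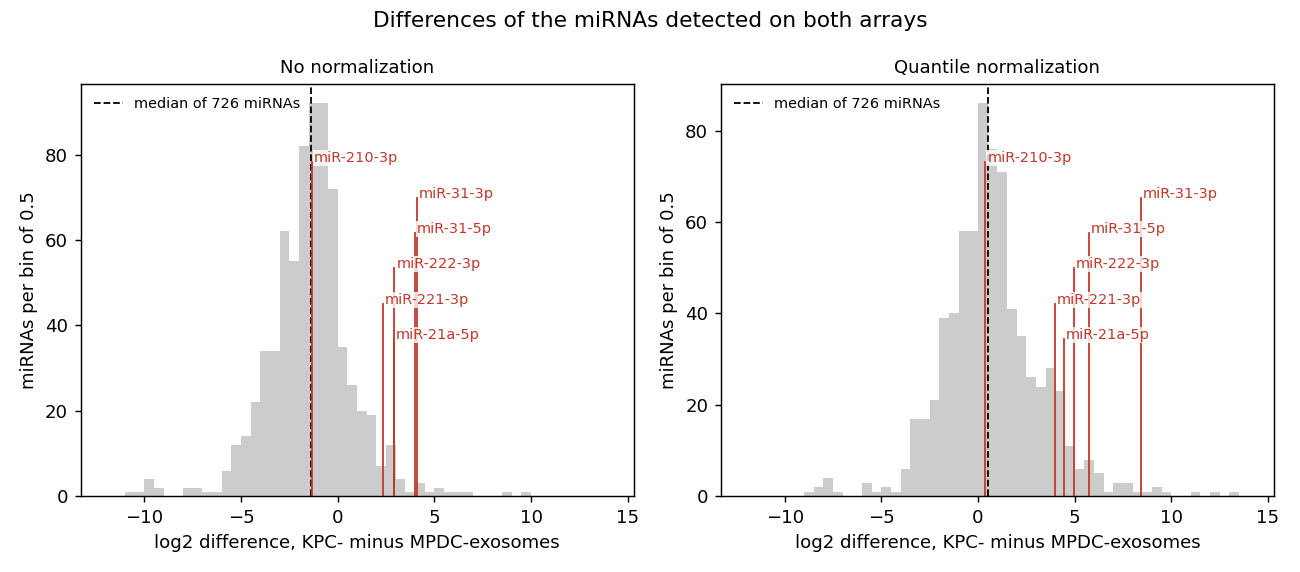
Distribution of the log2 differences (KPC-exosomes minus MPDC-exosomes, horizontal axis) of the 726 miRNAs detected on both arrays, as numbers of miRNAs, before and after quantile normalization, with the median dashed and the 6 members marked. miR-210-3p lies near the median in both panels, at −1.36 and 0.38, and the other 5 lie in the right tail.

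The probes gave the same directions as the summed signals, which were made from them. The probes of a member overlap and end at the same base, so they are not independent readings. The 8 members were read by 18 probes with targets of 12 to 21 bases and 240 spots on each array, and no spot was saturated. Of the 12 probes detected on both arrays 10 were brighter in KPC-exosomes, and the remaining 2 were both probes of miR-210-3p, whose direction turned with quantile normalization. For both probes of each of the 6 miRNAs measured on both arrays the spots of the 2 arrays did not overlap. This held for miR-210-3p too, whose difference was that of a typical miRNA. The share of all probes on the array without overlap was not computed, so the count is not a trait of the members. The coefficient of variation among the spots of such a probe was 3.07% to 17.3%, which covers variation within an array and not between preparations.

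**Figure D4:**
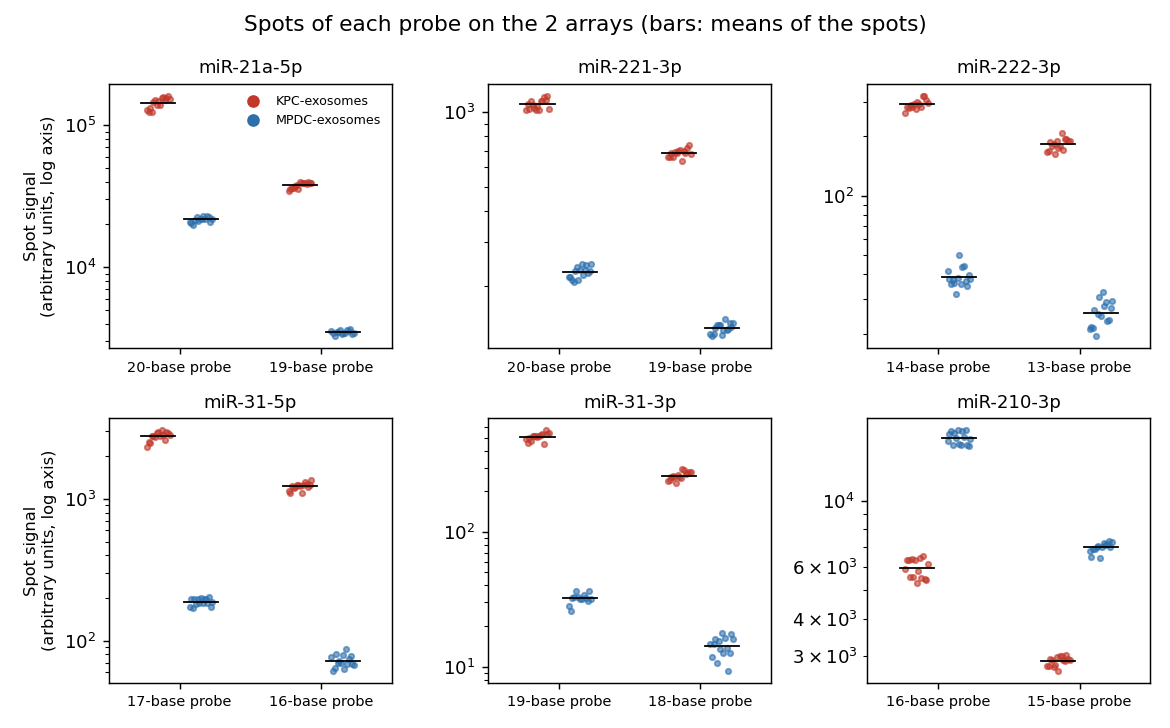
Spot signals of both probes of each of the 6 miRNAs detected on both arrays, before normalization on a log axis in arbitrary units, for KPC-exosomes and MPDC-exosomes. The spots of the arrays do not overlap for any of the 12 probes, and miR-210-3p is the 1 miRNA whose spots are higher in MPDC-exosomes before normalization, while after quantile normalization it is higher in KPC-exosomes. The share of all probes on the array without overlap was not computed.

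The members differed from each other as well. Of the 15 pairs of the 6 members measured on both arrays, 13 had log2 differences that lay more than 2 scanner errors apart before normalization. The exceptions were miR-21a-5p with miR-222-3p, which lay 0.03 apart with an error of 0.26, and the arms of Mir31. The share of all miRNA pairs that lay so far apart was not computed. The count of pairs is therefore not a trait of the members. The order from the largest difference was miR-31-3p, miR-31-5p, miR-222-3p, miR-21a-5p, miR-221-3p and miR-210-3p before and after quantile normalization, and other settings changed parts of it. The first pair and the third with the fourth were not separated before normalization.

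**Figure D5:**
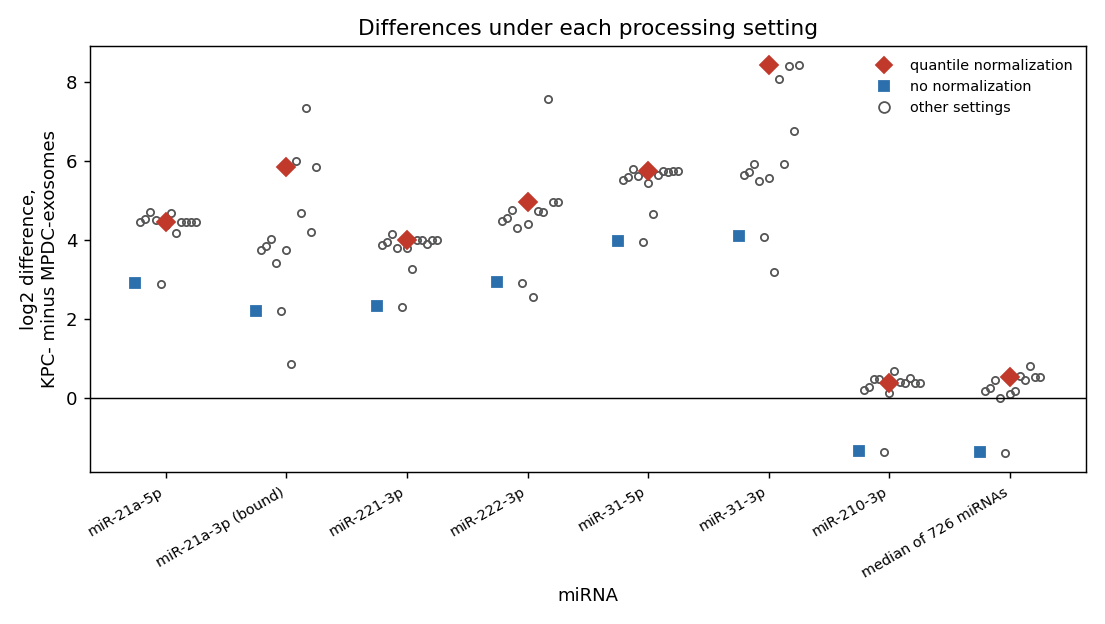
Log2 difference (KPC-exosomes minus MPDC-exosomes) of each of the 7 detected members, and the median of the 726 miRNAs, under 14 settings of normalization, background correction and summary, with a red diamond for quantile normalization and a blue square for no normalization. miR-31-3p spans 3.20 to 8.43 and miR-222-3p 2.56 to 7.57, while miR-210-3p spans −1.38 to 0.68 and changes its sign.

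A list of 10 other miRNAs often described as raised in pancreatic cancer was detected on both arrays in full. After quantile normalization 4 of the 10 were called higher in KPC-exosomes, against 31.5% of all detected miRNAs, and 3 lower, against 42.7%, with a median log2 difference of 0.54. Before it 1 was called higher, against 11.1%, and 5 lower, against 68.0%, with a median of −1.35. miR-155-5p, a miRNA of activated immune cells and many tumours, had signals of 456 ± 39.1 and 179 ± 14.4 in KPC-exosomes and MPDC-exosomes (log2 difference 1.35 before normalization and 7.98-fold higher in KPC-exosomes after it). miR-196a-5p, encoded within the Hox clusters, had signals of 4.92 ± 0.839 and 1036 ± 57.1 (log2 difference −7.72 and −5.95). The median of the list was close to that of all 726 miRNAs in both settings.

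The miRNAs whose normalized values lay nearest to those of a member on both arrays were found by the summed absolute log2 distance over the 2 arrays. Nearest to miR-31-3p were miR-146a-5p, miR-7237-5p and miR-6985-5p (0.65 to 0.77), and nearest to miR-31-5p were miR-432, miR-7648-3p and miR-365-2-5p (1.15 to 1.44). For miR-221-3p these were miR-6370, miR-432 and miR-7014-5p (0.54 to 0.60), and for miR-222-3p miR-98-5p, miR-760-5p and miR-100-5p (1.06 to 1.31). For miR-21a-5p they were miR-5126, miR-6366 and miR-3963 (1.02 to 1.44), and for miR-210-3p miR-27a-3p, miR-5100 and miR-709 (0.62 to 0.75). No member was among the 3 nearest of another.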

How the data were processed

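RNA of KPC-exosomes and of MPDC-exosomes carried Cy3 and was read on 1 Agilent mouse miRNA array each, both on 1 slide. The authors deposited the Feature Extraction 10.7.1.1 output (version per the file headers; 9.1 in the submitters' processing notes), with probe signals as intensities after background subtraction. They also deposited log2 values normalized between the arrays in GeneSpring by a method that the paper does not name.

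Here the total probe signals above 3 errors were summed for each miRNA, a floor of 0.1 stood in for undetected miRNAs, and the arrays were quantile normalized with ties averaged and put on the log2 scale. The result lay within 1.11e-05 (log2) of the deposited values. Quantile normalization takes both arrays to hold the same distribution of signals. With a single array for each condition nothing was tested, and errors are those of the scanner's error model. A difference of at least 2-fold in a miRNA detected on at least 1 array was called. For the calls the floor was kept. For the size of a difference an undetected signal was replaced by a bound, the higher of the array's dimmest detected signal and the miRNA's own summed signal. This bound can lie under the limit of detection of the miRNA's own probes.

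Alternatives were no normalization, scaling by the median or the 75th percentile of miRNAs with signal on both, by that percentile of all or by 4 spike-in controls, quantiles among miRNAs with signal on both, the processed signal, normexp with an offset of 50, the brightest probe, all probes, the total of Feature Extraction, a floor of 1, the deposited values, other limits of detection and other thresholds. The 8 miRNAs, the lists and the alternatives were chosen with earlier results of these data known. The named miRNAs were the 8, the other products of their precursors with miR-21b and miR-21c, examples from a list of 10 other pancreatic cancer miRNAs, the 3 miRNAs with the nearest normalized values to each, and lists of epithelial, mesenchymal, acinar or islet, blood and pluripotent marker miRNAs. Detected miRNAs with the seed of a member were to be named too, and there were none; miR-1928, which was not detected, was named after its values were seen. The normalization and calls were run on simulated data, made from the MPDC-exosomes array with as many miRNAs raised as lowered. The simulated arrays shared their detected miRNAs, unlike the real ones. The run therefore does not test how well quantile normalization suits these data. Sequences came from RefSeq (GRCm38.p6), which held 1608 of the 1881 miRNAs by name and all 8 studied here. Python 3.11.15, numpy 2.4.6, pandas 2.3.3, R 4.3.3 with limma 3.58.1 and matplotlib 3.10.9 were used. The paper's RT-qPCR and immunoblots were not analysed here. A part of the genotype of the KPC mice is not reported here.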

Additional observations from a re-analysis of the deposited data

How the results depend on the processing

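Each of the 7 differences of a detected member was recomputed under 13 other settings, which gave 91 values, of which 52 stayed within the 95% interval of the scanner error, 37 moved by more with their sign kept and 2 changed sign. Both were miR-210-3p, with a log2 difference of −1.36 where no normalization was applied and −1.38 where the spike-in controls set the scale, and in these settings the number of members called lower was 1 and 1 in place of 0. The cause of the change was not tested. For miR-21a-3p, which was not detected in MPDC-exosomes, there was no scanner error of a difference. Its 13 values, of which 2 were counted as stayed and 11 as moved, are thus not comparable with those of the other members. Of the 13 other settings 1 was the deposited values, which the main setting reproduces, so it could not move a value. A floor of 1 and the sum over all probes likewise left miR-21a-5p, miR-221-3p and miR-210-3p unchanged. The count of values that stayed is therefore not a measure of robustness. The number called higher was 6 in the main setting and between 5 and 7 in all others. It was 5 with normexp, where miR-21a-3p missed 2-fold, and 5 where detection on both arrays was required. With a difference above 2 scanner errors in place of 2-fold it was 7, which adds miR-210-3p (log2 difference 0.38, scanner error 0.15), a miRNA near the median of the arrays. The share of all miRNAs called under each of these changed rules was not computed. The number detected on both arrays was 7 at 2 errors and 6 at 5 errors. No paired analysis was possible because there was 1 array per condition, and for the same reason no array could be left out. Signals near the background, as for miR-31-3p and miR-21a-3p in MPDC-exosomes, limited how well the size of their differences was known. The difference of miR-222-3p, with a signal of 17.7 in MPDC-exosomes, also moved in 8 of the 13 other settings. The variation between cultures, exosome preparations and arrays was not measured.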
